A study of Mus musculus with 6 samples.

Results

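Vehicle-treated hypothalamic neurons of leptin-deficient mice (OB) were compared with those of chow-fed mice, for GABAergic and glutamatergic neurons apart. A nucleus was taken as vehicle when its log2 count of hashtag 2, centred on the mean of its pool, was at least 1 above that of hashtag 1. A neuron held at least 1 UMI (a counted RNA molecule) over Gad1, Gad2, Slc32a1 and Slc17a6. It was GABAergic with no Slc17a6 UMI and glutamatergic with none of the other 3 genes. The nuclei were thus chosen by their hashtag counts and by their UMIs of these 4 genes, whose own levels are no finding. These rules gave 5145 nuclei of the 23137 in both pools and of the 34542 in the series. GABAergic neurons numbered 1163 in OB and 1878 in chow, and glutamatergic neurons 712 and 1392. Another 69 OB and 269 chow nuclei held both kinds of transmitter gene and were left out.

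The series profiled NeuN-sorted single nuclei of mouse hypothalamus with the 10x Genomics 3′ v3 kit in 3 pools, chow, diet-induced obese (DIO) and OB, under a title on leptin resistance. OB mice were ob/ob animals on chow, and the comparison group was fed chow with no mutation named. Within each pool 1 hashtag marked nuclei of mice given rapamycin and 1 marked nuclei of mice given vehicle, per the deposited key. Strain, age, sex, dose, duration and the number of mice behind a hashtag were not given in the sources used here. Each group was therefore 1 hashtag of 1 pool with no replicate, and no difference carries a test. Genotype, library and processing version are the same split of the data, so their parts in any difference cannot be told apart.

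Leptin is made by fat cells and reports energy stores to the brain. The ob/ob mutation leaves mice without working leptin, and they overeat and become obese. Leptin restrains the arcuate neurons that make Agrp and Npy, which drive feeding, and stimulates those that make Pomc and Cartpt, which curb it. Most Agrp neurons release GABA, and Pomc neurons include both transmitter types.

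The OB pool was shallower. Its 12284 barcodes held 39238102 UMIs with a median of 2804.5, against 68992028 UMIs and a median of 5826 in the 10853 chow barcodes. Summed UMIs were 4244945 in OB against 12082732 in chow for GABAergic neurons and 2928630 against 9727445 for glutamatergic neurons. Hashtag 2 also stood less far above hashtag 1 in OB, at median counts of 373 against 166 in vehicle nuclei, than in chow, at 1562 against 189. In OB the 408 nuclei just inside the limit (centred gap 1 to 1.25) had medians of 238.5 and 202, and the 230 just outside it (0.75 to 1) had 268.5 and 267.5. In chow the 94 nuclei just inside had 684.5 and 250, and the 74 just outside 1257 and 584. HTODemux, another way to call hashtags, called 2351 OB nuclei vehicle against 5513 by the rule, and 5186 against 5420 in chow. With it the OB neurons of both classes numbered 782, against 1875 by the rule. How far mixing of the 2 OB hashtags bears on comparisons of both hashtags was not tested. Vehicle nuclei with none of the 4 transmitter genes, called marker-free below, made up 64.7% of OB and 34.7% of chow vehicle nuclei. The call of many OB neurons rested on a single UMI of those genes, in 56.2% of GABAergic and 71.1% of glutamatergic nuclei, against 37.2% and 58.2% in chow. Between both pools 38 barcode sequences were shared, 1 of them among the neurons described.

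Marker genes that the rule did not use were compared between the classes. Dlx1, a transcription factor of forebrain GABAergic neurons, stood at 22.9 counts per 1000000 UMIs (CPM) in GABAergic and 1.03 in glutamatergic chow neurons, and at 15.1 and 0.683 in OB. Sim1, a transcription factor of paraventricular glutamatergic neurons, stood at 109 CPM in glutamatergic and 11.6 in GABAergic chow neurons, and at 125 and 8.72 in OB. Of the 8 measured GABAergic identity genes outside the rule, 2 were higher and 6 lower in OB than in chow GABAergic neurons, with a median log2 ratio of -0.47. For 7 measured glutamatergic identity genes in glutamatergic neurons, 3 were higher and 4 lower, with a median of -0.09. GABAergic neurons made up 62.0% of the nuclei of both classes in OB (95% interval 59.8 to 64.2) and 57.4% in chow (55.7 to 59.1). With every nucleus thinned to 1000 UMIs the share was 66.0% in both pools, with 408 OB and 18 chow nuclei too shallow to enter.

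Genes of other cells and mitochondrially encoded genes were also counted in these neurons, more in OB. The 9 astrocyte genes summed to 134 CPM in OB and 60.4 in chow GABAergic neurons and to 101 and 67.4 in glutamatergic ones. The 10 oligodendrocyte genes summed to 126 and 62.7, and to 93.9 and 58.1, and none of either list was at 0 in both pools. The 7 tanycyte and ependymal genes summed to 45.0 against 21.8 and 42.3 against 19.3, and the 13 mitochondrially encoded genes to 182 against 64.3 and 168 against 74.8. The 9 pituitary genes summed to 42.9 against 5.38 in GABAergic neurons and 39.3 against 33.7 in glutamatergic ones, with 1 of the 9 at 0 in both pools. Microglial genes summed to 173 against 124 and 169 against 133, and blood genes to 46.2 against 22.9 and 38.2 against 20.3. General neuronal genes summed to 4337 against 4232 and 3809 against 3985. The part of these nuclei or of free RNA in the differences below was not tested beyond the values given beside them.

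For each gene the CPM of OB was divided by that of chow, and the log2 ratio is given with an exact 95% interval for counting error alone, which takes UMIs as independent and leaves out mice and nuclei. In such sums, fewer expressing cells and less RNA per cell cannot be told apart. Genes that reached 50 UMIs over OB and chow combined numbered 12823 in GABAergic and 12294 in glutamatergic neurons. Their median log2 ratios were -0.04 and -0.05, and 44.5% and 43.3% of them were higher in OB, the shares against which the counts of list members below are to be read. In GABAergic neurons 306 genes (2.39%) were at least 2-fold higher in OB and 212 (1.65%) at least 2-fold lower. In glutamatergic neurons 227 (1.85%) were higher and 246 (2.0%) lower. Both OB hashtags, vehicle and rapamycin, lay above both chow hashtags for 29.4% of GABAergic and 26.3% of glutamatergic genes tested. They lay below both for 33.2% and 32.5%. Statements below on both hashtags are to be read against these shares.

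Many of these genes differed in the same way in nuclei that the rule did not use. Of the 306 genes higher in GABAergic neurons, 225 were also at least 2-fold higher in marker-free nuclei, 192 in rapamycin GABAergic neurons and 176 in glutamatergic neurons, and 47 in none of these. Of the 212 lower, 97, 88 and 95 repeated and 79 did not. In glutamatergic neurons the numbers were 149, 127 and 135 of the 227 higher with 50 in none, and 81, 81 and 90 of the 246 lower with 132 in none. The rapamycin nuclei share the library of their pool, so they are other nuclei but not another library.

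The 10 genes that led in each direction, by the interval bound nearest 0, were all at least 2-fold different in the same direction in rapamycin neurons, in the other class and in marker-free nuclei. In GABAergic neurons Ankmy1 had 63 UMIs in OB and none in chow, and Tulp2 had 58 and 1. Ankmy1 was 59.8-fold higher when the chow sum was set to a floor of 3 counts, and its log2 interval began at 5.56. Fold values for other genes with no UMI in 1 sum use the same floor and are not lower bounds. Maml2, a coactivator of Notch signalling, stood at 245 CPM in OB and 23.7 in chow. At the other end, Pde2a, a phosphodiesterase that breaks down cyclic nucleotides, had 1 UMI in OB and 515 in chow. Hgs, a sorting protein of endosomes, had none and 220 (25.8-fold lower against the floor), and Raver1 none and 212 (24.8-fold lower against the floor). Atp5o, a subunit of mitochondrial ATP synthase, had 87 and 2816. Glutamatergic neurons gave the same picture, with Tulp2 at 50 and none (55.4-fold higher against the floor) and Maml2 at a log2 ratio of 3.26. Pde2a was at none and 376 there (37.7-fold lower against the floor), and Atp5o at a log2 ratio of -3.61. In the DIO pool, which shares the chow controls, 3 of the 10 higher GABAergic genes were 2-fold different from chow and none of the other genes that led.

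The pools had been counted over different gene lists. Chow had been counted with Cell Ranger 6.0.0 over 27998 genes and OB with 7.0.1 over 31053, and only the 27514 shared genes were used. DIO, like chow, had been counted with 6.0.0 over 27998 genes. A gene that differs in OB but not in DIO therefore cannot tell genotype from processing version. Among genes with a position, 2.28% of those tested in GABAergic neurons overlapped a gene listed for 1 pool only, against 7.14% of those higher in OB and 8.06% of those lower. In glutamatergic neurons these shares were 2.33%, 8.51% and 7.52%. The median ratio also moved with the genomic span of the gene, from -0.15 in the shortest to 0.14 in the longest of 20 bins in GABAergic neurons and from -0.13 to 0.13 in glutamatergic ones.

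**Figure D1:**
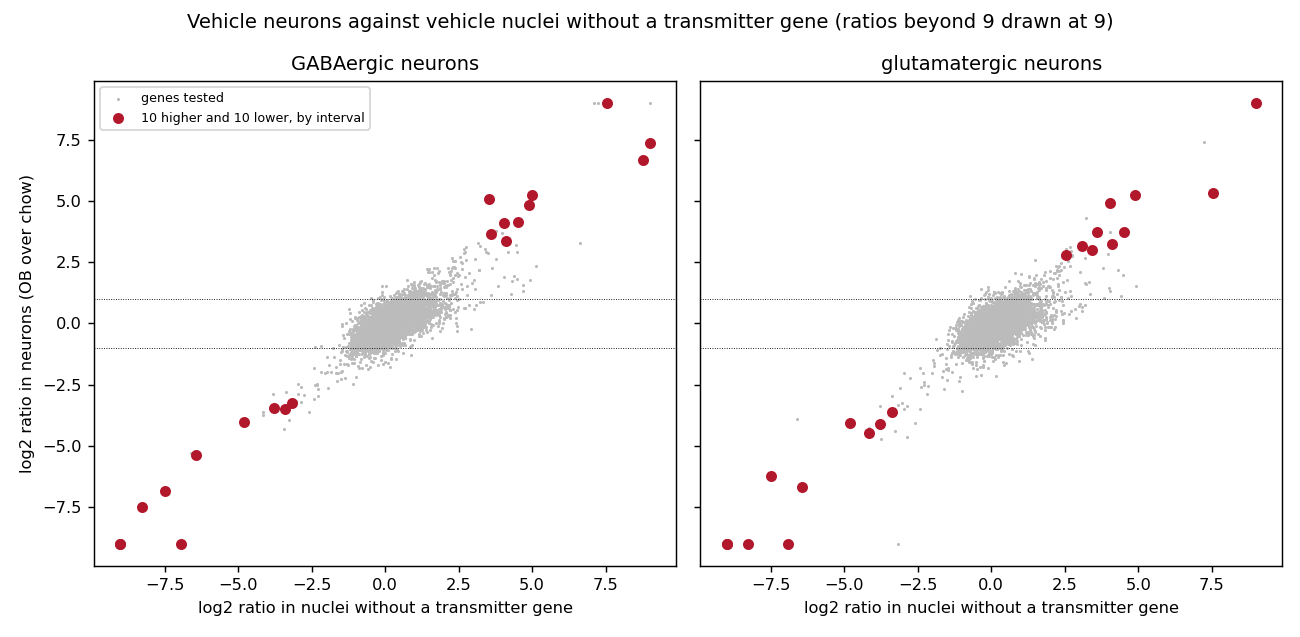
Each point is a gene with at least 50 UMIs, with its log2 ratio of OB over chow in vehicle nuclei without a transmitter gene (horizontal) and in vehicle neurons (vertical), for GABAergic (left) and glutamatergic (right) neurons. Dotted lines mark 2-fold, ratios beyond 9 are drawn at 9, and the 20 named genes of each class (red) lie on the same side of 0 on both axes.

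The neuropeptides that leptin is known to restrain were higher in OB. Npy (chromosome 6, 49822710 to 49829507, GRCm38.p6) in GABAergic neurons stood at 11.5 CPM in OB vehicle, 29.2 in OB rapamycin, 3.23 in chow vehicle and 4.46 in chow rapamycin neurons. Both OB values lay above both chow values, which held for 29.4% of all genes tested in this class. The log2 ratio in vehicle neurons was 1.84 (1.20 to 2.48), from 49 UMIs in OB and 39 in chow. Npy UMIs were found in 2.92% of OB and 1.70% of chow GABAergic nuclei, against 1.20% and 0.85% of marker-free nuclei, with median depths of 3346 and 5965 UMIs in GABAergic and 2166 and 4848 in marker-free nuclei. In marker-free nuclei Npy stood at 5.36 CPM in OB and 1.76 in chow, a log2 ratio of 1.60 (0.78 to 2.50) close to that in GABAergic neurons. In glutamatergic neurons Npy had only 12 and 16 UMIs.

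Agrp, which blocks melanocortin receptors, stood in GABAergic neurons at 80.1 and 103 CPM in OB (vehicle, then rapamycin) and at 56.8 and 67.4 in chow. Again both OB values were above both chow values, with a log2 ratio of 0.50 (0.30 to 0.69), short of 2-fold. The ratio was 0.31 (0.05 to 0.57) in glutamatergic and 0.31 (0.14 to 0.48) in marker-free nuclei. Agrp UMIs were spread over 23.4% of OB and 27.4% of chow GABAergic nuclei, and over 14.1% and 22.8% of marker-free nuclei, so nuclei of every kind held some. Nuclei with 5 or more Agrp UMIs were 1 of the OB GABAergic neurons (7 UMIs) and 8 of those in chow (43 UMIs), and without them the ratio was 0.55 (0.36 to 0.75). In DIO vehicle neurons, set beside the same chow controls, Npy was at 1.35 and Agrp at 57.9 CPM.

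Cartpt, a peptide precursor of Pomc and other neurons, was lower in OB. GABAergic neurons held it at 6.83 and 8.81 CPM in OB and 16.8 and 19.2 in chow, and at 27.7 in DIO vehicle neurons. Both OB values lay below both chow values, which held for 33.2% of all genes tested in GABAergic and 32.5% in glutamatergic neurons. The log2 ratio was -1.30 (-1.91 to -0.73). In glutamatergic neurons the values were 10.6 and 7.96 CPM in OB and 18.0 and 11.8 in chow, again without overlap, with a ratio of -0.77 (-1.37 to -0.21). A few chow nuclei carried much of the GABAergic ratio. In chow 7 nuclei with 5 or more Cartpt UMIs held 89 of the 203, and OB had none. Without such nuclei, a step chosen after seeing the data, the ratio was -0.47 (-1.12 to 0.12), and in glutamatergic neurons -0.56 (-1.25 to 0.09). The GABAergic ratio also depended on how nuclei were drawn. It was -0.44 with hashtags called by HTODemux, -0.75 with the neuron clusters of both pools given equal weight and 0.69 with nuclei thinned to 1000 UMIs.

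Lepr (chromosome 4, 101717137 to 101815352), the leptin receptor, was higher in OB GABAergic neurons. GABAergic neurons held it at 37.7 and 42.5 CPM in OB and 23.8 and 29.4 in chow, with both OB values above both chow values and a log2 ratio of 0.66 (0.37 to 0.94). Glutamatergic neurons held it at 19.1 and 20.5 in OB and 23.3 and 18.8 in chow, where the groups overlapped and the ratio was -0.29 (-0.74 to 0.14). The difference between the classes was not tested. Lepr in GABAergic neurons of DIO vehicle mice was at 38.5 CPM. With nuclei thinned to 1000 UMIs the GABAergic ratio was -0.07.

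Socs2, an inhibitor of cytokine and growth hormone signalling, was lower in both classes. It is not a member of the leptin receptor signalling list described below, and it was named outside the rules for named genes. It stood in GABAergic neurons at 10.6 and 12.3 CPM in OB and 23.4 and 28.2 in chow, with a log2 ratio of -1.14 (-1.63 to -0.69). Glutamatergic neurons held it at 12 and 11.6 in OB and 21.1 and 23.2 in chow, with a ratio of -0.82 (-1.38 to -0.30). No OB value reached a chow value in either class, as held for 33.2% and 32.5% of all genes tested. In marker-free nuclei the ratio lay between -1.08 and -0.44. With HTODemux the ratios were -0.69 and -0.88, and with nuclei thinned to 1000 UMIs they were -0.67 and -0.16.

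Genes of the leptin receptor signalling list stood closer to chow on balance. Of 18 listed, 14 were measured in each class, and 6 were higher and 8 lower in GABAergic neurons (median -0.06) and 5 and 9 in glutamatergic neurons (median -0.16), none at least 2-fold, where 44.5% and 43.3% of all genes tested were higher. Ptpn1, a phosphatase that acts on the receptor's kinase, was lower at -0.41 (-0.60 to -0.23) and -0.57 (-0.80 to -0.34), and below chow in both hashtags. Jak2, that kinase, was at -0.19 (-0.42 to 0.03) and -0.46 (-0.75 to -0.18). Stat3, the transcription factor it activates, was at 0.09 (-0.15 to 0.33) and -0.09 (-0.42 to 0.23). Socs3, its feedback inhibitor, had 6 UMIs in OB and 11 in chow GABAergic neurons, too few to describe.

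**Figure D2:**
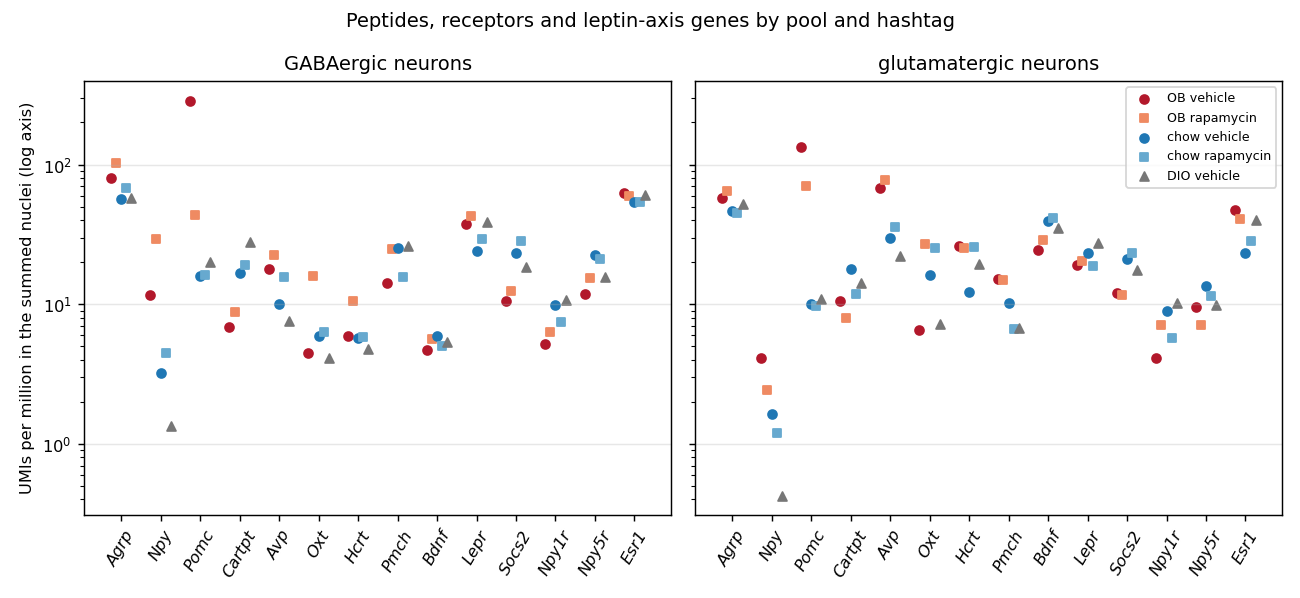
CPM (log axis) of 14 peptide, receptor and leptin-axis genes in summed GABAergic (left) and glutamatergic (right) neurons of each pool and hashtag, 1 point per sum and no replicates. Npy, Agrp and Lepr in GABAergic neurons and Pomc and Avp in both classes lie higher in both OB sums than in both chow sums, and Cartpt and Socs2 lower.

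Pomc, the precursor of the melanocortins that curb feeding, was higher in OB, although leptin is known to stimulate it in arcuate neurons. GABAergic neurons held it at 286 CPM in OB vehicle, 43.7 in OB rapamycin, 16.0 in chow vehicle and 16.2 in chow rapamycin neurons, a vehicle log2 ratio of 4.16 (3.94 to 4.39). Glutamatergic neurons held it at 134, 69.8, 9.97 and 9.73 CPM, with a ratio of 3.75 (3.42 to 4.08). The marker-free nuclei had the largest ratio of these, 4.52 (4.35 to 4.69).

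A few nuclei held most of this Pomc. Of the 1214 Pomc UMIs in OB GABAergic neurons, 1023 were in 12 nuclei with 20 or more each. Those 12 nuclei held 10 UMIs of Pax7, a factor of the pituitary's intermediate lobe, spread over 7 of them, and 274 of Pcsk2, but none of Cartpt, Lepr or Tbx3. The 1 such chow GABAergic nucleus, with 37 Pomc UMIs, held 2 Cartpt, 9 Lepr and 1 Tbx3 UMIs and no Pax7. In OB marker-free vehicle nuclei 70 such nuclei held 5709 Pomc UMIs and 92 Pax7 UMIs in 47 nuclei. No OB rapamycin GABAergic nucleus reached 20 Pomc UMIs, and 2 OB rapamycin glutamatergic nuclei did, with 85 Pomc, 2 Pax7 and 19 Pcsk2 UMIs.

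Without those nuclei, a step chosen after seeing the data, the log2 ratio was 1.82 (1.5 to 2.13) from 191 and 156 UMIs in GABAergic neurons and 2.36 (1.93 to 2.80) from 116 and 75 in glutamatergic ones. The remaining Pomc was thinly spread. At least 1 Pomc UMI was found in 14.8% of OB GABAergic, 14.6% of glutamatergic and 15.7% of marker-free nuclei, against 5.75%, 4.96% and 5.21% in chow, with median depths that differed between the kinds of nucleus. Thinned to 1000 UMIs, the OB shares were 6.61% of GABAergic (4.62 to 9.12), 3.77% of glutamatergic (1.82 to 6.83) and 8.11% of marker-free nuclei (7.31 to 8.96), against 1.44%, 0.84% and 1.43% in chow. With at least 2 transmitter UMIs asked of each neuron, the ratios over all nuclei were 4.01 and 1.54. Gh, a hormone gene of the anterior pituitary, had 71 UMIs in OB and 2 in chow GABAergic neurons.

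**Figure D3:**
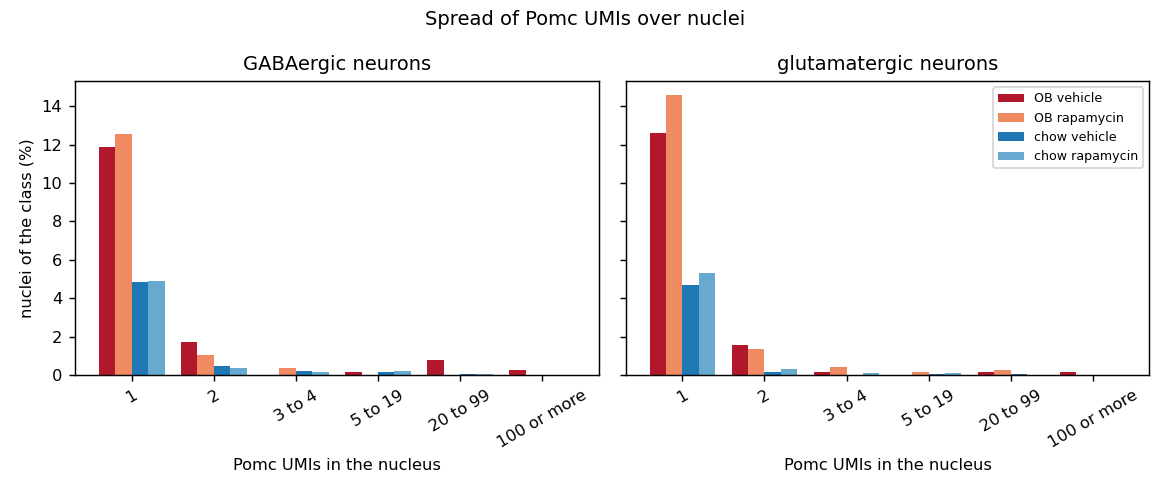
Share of nuclei (%) by the number of Pomc UMIs they held, for OB and chow nuclei of each hashtag, in GABAergic (left) and glutamatergic (right) neurons; bars start at 0 and nuclei with no Pomc UMI are not drawn. OB nuclei with 1 UMI are more frequent than chow ones in both hashtags, and the nuclei with 100 or more, 3 GABAergic and 1 glutamatergic, are all OB vehicle.

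Among the other peptides, Avp, the vasopressin precursor of paraventricular, supraoptic and suprachiasmatic neurons, was higher in both classes. It stood in glutamatergic neurons at 68.3 and 77.8 CPM in OB and 30.02 and 35.4 in chow, with a log2 ratio of 1.19 (0.92 to 1.45). Both OB values lay above both chow values, which held for 26.3% of all genes tested in this class. In GABAergic neurons Avp stood at 17.9 and 22.5 against 10.0 and 15.6, a ratio of 0.84 (0.40 to 1.26). The ratio in marker-free nuclei was 0.91 (0.74 to 1.09). With at least 2 transmitter UMIs asked of each neuron, the ratios were 0.74 in glutamatergic and 0.08 in GABAergic neurons. Bdnf, a growth factor of ventromedial neurons that lowers food intake, was lower in glutamatergic neurons, at 24.6 and 28.8 CPM in OB and 39.2 and 41.2 in chow, with a ratio of -0.67 (-1.06 to -0.31). In DIO vehicle neurons Bdnf was at 35.4 CPM.

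For several other peptides the ratio in vehicle neurons was not met in rapamycin neurons. Oxt, the oxytocin precursor, had a vehicle log2 ratio of -1.32 (-2.09 to -0.63) in glutamatergic neurons but 0.09 in rapamycin neurons. In chow 9 nuclei with 5 or more Oxt UMIs held 113 of the 158, OB had none, and without them the vehicle ratio was 0.47 (-0.38 to 1.28). Hcrt, the orexin precursor that promotes waking and feeding, had 1.10 (0.66 to 1.53) and -0.01. Pmch, the precursor of melanin-concentrating hormone, stood in GABAergic neurons at 14.1 and 24.7 CPM in OB and 25.2 and 15.6 in chow, so the groups overlapped despite a vehicle ratio of -0.84. There 15 chow nuclei with 5 or more Pmch UMIs held 242 of the 305, against 12 of 60 in 2 OB nuclei, and without them the ratio was 1.10 (0.52 to 1.66). Gal, a peptide of many hypothalamic neurons, was at -0.41 (-1.16 to 0.29) with vehicle and 1.23 with rapamycin in GABAergic neurons, and Penk, an opioid precursor, at -0.27 and 0.52. Sst was at 0.32 (-0.16 to 0.79), Tac1 at 0.61 (0.14 to 1.06), Tac2 at 0.07 and Nts at -0.79 (-1.82 to 0.12) in GABAergic neurons. Of 33 shared feeding-related peptides, 18 were measured in GABAergic neurons, 9 higher and 9 lower, and 14 in glutamatergic neurons, 7 and 7. At least 2-fold higher in GABAergic neurons were Pomc and Npy, and lower was Cartpt. In glutamatergic neurons Pomc, Avp and Hcrt were at least 2-fold higher and Oxt and Sst lower. The glutamatergic ratio of Sst, -1.14 (-2.66 to 0.09), rested on 6 and 44 UMIs and was 0.65 with rapamycin. Crh, Trh, Ghrh, Pdyn, Vip and Cck held fewer than 50 UMIs in each class.

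Summed over all nuclei of the class, enzymes that cut and finish peptides were modestly higher in GABAergic neurons. Pcsk2, which cleaves precursors in granules, was at 0.32 (0.23 to 0.40), Cpe, which trims the products, at 0.26 (0.14 to 0.38) and Pam, which amidates them, at 0.14 (0.06 to 0.21), each above chow in both hashtags. In glutamatergic neurons they were at 0.10 (0.02 to 0.18), 0.00 (-0.15 to 0.15) and 0.05 (-0.02 to 0.12). Pcsk1, which makes the first cut, was at 0.26 (-0.06 to 0.57) and -0.26 (-0.56 to 0.02). In marker-free nuclei Pcsk2 was at 0.25 and Cpe at 0.57. Nuclei with 20 or more Pomc UMIs held 274 of the 1602 Pcsk2 UMIs in OB vehicle GABAergic neurons and 0 of 3656 in chow. In marker-free vehicle nuclei they held 1220 of 4429 in OB and 21 of 4023 in chow. The vehicle Pcsk2 ratios of 0.32 in GABAergic and 0.25 in marker-free nuclei include these nuclei and were not computed without them. They therefore do not show that Pcsk2 was higher in the remaining vehicle nuclei. OB rapamycin GABAergic neurons held no such nucleus. Of 18 members measured, 12 were higher in GABAergic neurons (median 0.09) and 7 in glutamatergic ones (median -0.05).

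Npy5r, an Npy receptor that mediates feeding, stood in GABAergic neurons at 11.8 and 15.3 CPM in OB and 22.5 and 20.9 in chow, which gave a log2 ratio of -0.93 (-1.40 to -0.50). In glutamatergic neurons it was at 9.56 and 7.04 against 13.5 and 11.5, a ratio of -0.49 (-1.14 to 0.10). Both OB values lay below both chow values in each class, which held for 33.2% and 32.5% of all genes tested. In marker-free nuclei the interval of Npy5r ran from -1.67 to -0.88. Npy1r, another Npy receptor, was at -0.94 (-1.67 to -0.27) in GABAergic neurons, below chow in both hashtags. In glutamatergic neurons it was at -1.13 (-2.13 to -0.25) with vehicle but 0.31 with rapamycin.

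Esr1, the estrogen receptor of arcuate and ventromedial neurons, was higher in glutamatergic neurons, at 47.5 and 41.0 CPM in OB against 23.1 and 28.5 in chow, and its vehicle log2 ratio was 1.04 (0.72 to 1.35). With HTODemux that ratio was 0.49. In GABAergic neurons it was 0.21 (0.00 to 0.42). DIO vehicle glutamatergic neurons held Esr1 at 40.2 CPM. Of 45 shared feeding-related receptors, 29 were measured in GABAergic neurons, 13 higher and 16 lower (median -0.09), and 27 in glutamatergic neurons, 15 higher and 12 lower (median 0.03). Mc3r and Mc4r, the brain's melanocortin receptors, held fewer than 50 UMIs in each class.

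Immediate-early genes, which neurons switch on after strong input, were lower in OB glutamatergic neurons. Nr4a2 (chromosome 2), an orphan nuclear receptor, stood there at 3.41 CPM in OB vehicle, 3.98 in OB rapamycin, 15.1 in chow vehicle and 13.4 in chow rapamycin neurons. The log2 ratio was -2.15 (-3.24 to -1.23), from 10 and 147 UMIs, and it was -2.08 with HTODemux and -1.65 with equal cluster weights. Nr4a2 is also present without stimulation in certain neuron types, and how far the mix of neurons bears on its ratio was not tested beyond those cluster weights. In GABAergic neurons it was at 0.34 (-0.61 to 1.23) and in marker-free nuclei the interval ran from -0.34 to 0.63.

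Fos was at 2.05 and 3.67 CPM in OB and 5.86 and 5.90 in chow glutamatergic neurons, a log2 ratio of -1.52 (-3.02 to -0.31) resting on 6 and 57 UMIs, and at 0.93 (0.38 to 1.5) in marker-free nuclei. With HTODemux the glutamatergic ratio was -0.69. Junb was at -1.05 (-1.81 to -0.37) and Btg2 at -0.86 (-1.46 to -0.31), both below chow in both hashtags. Of the 9 measured members, 2 were higher and 7 lower (median -0.54), and 7 lay below chow in both hashtags, against 32.5% of all genes tested in this class. With rapamycin nuclei in place of vehicle the median was -0.55. In marker-free nuclei the median of the members was 0.06.

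In GABAergic neurons 2 of 10 immediate-early genes were higher and 8 lower (median -0.28, -0.57 with rapamycin and 0.02 with thinning). Below chow in both hashtags were 7, against 33.2% of all genes tested in this class. Npas4, which is induced by calcium entry, was at -1.02 (-1.99 to -0.16) there but at 0.43 with nuclei thinned to 1000 UMIs, and Fos at -0.13 (-0.98 to 0.66). Nr4a1 went the other way, with 30 UMIs in each sum and a log2 ratio of 1.51 (0.73 to 2.29), and was at 2.80 in marker-free nuclei. In DIO vehicle neurons, against the same chow controls, the medians were -0.44 in GABAergic and -0.29 in glutamatergic neurons. These genes are short, with median spans of 4020.5 and 3750 bases. Over all genes in the shortest and next shortest span bins, DIO medians were -0.62 and -0.41 in GABAergic neurons. In glutamatergic neurons they were -0.60 and -0.42. After the median ratio of genes of like span was set to 0, the OB medians of the list were -0.20 and -0.43.

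Genes of cholesterol synthesis were lower in both classes. These genes share the transcription factor Srebf2, which is released when membrane sterol is low, and Insig1 holds it back when sterol is plentiful. Insig1 stood in GABAergic neurons at 7.54 and 8.10 CPM in OB and 14.5 and 10.9 in chow, which gave a log2 ratio of -0.94 (-1.53 to -0.39). In glutamatergic neurons it stood at 9.56 and 6.74 against 15.5 and 12.7, a ratio of -0.70 (-1.34 to -0.11). Idi1, which isomerises the isoprene unit, was at -0.69 (-1.22 to -0.19) and -1.23 (-1.94 to -0.58). No OB value of either gene reached a chow value, as held for 33.2% of GABAergic and 32.5% of glutamatergic genes tested.

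The promoters of 3 of these genes, from 250 bases before to 50 after the RefSeq start in GRCm38.p6 and all on the plus strand, are shown because the genes were lower together in both classes. Capitals mark CCAAT or its reverse complement ATTGG, the letters of the site that the factor NF-Y binds beside Srebf2. They lie at chr5:28071162-28071461 (Insig1), chr13:8885356-8885655 (Idi1) and chr13:119690101-119690400 (Hmgcs1).
Insig1: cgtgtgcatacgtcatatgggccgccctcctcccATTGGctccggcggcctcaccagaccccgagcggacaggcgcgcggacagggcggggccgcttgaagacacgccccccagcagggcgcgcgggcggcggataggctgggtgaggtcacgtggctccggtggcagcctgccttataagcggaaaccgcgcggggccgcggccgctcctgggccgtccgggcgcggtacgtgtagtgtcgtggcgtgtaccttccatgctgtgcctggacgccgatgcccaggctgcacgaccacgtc
Idi1: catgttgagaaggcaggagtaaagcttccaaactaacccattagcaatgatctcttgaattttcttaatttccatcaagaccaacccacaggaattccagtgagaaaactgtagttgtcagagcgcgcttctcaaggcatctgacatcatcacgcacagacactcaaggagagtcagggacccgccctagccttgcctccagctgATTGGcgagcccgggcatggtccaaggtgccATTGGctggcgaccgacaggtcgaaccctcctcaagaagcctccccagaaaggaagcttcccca
Hmgcs1: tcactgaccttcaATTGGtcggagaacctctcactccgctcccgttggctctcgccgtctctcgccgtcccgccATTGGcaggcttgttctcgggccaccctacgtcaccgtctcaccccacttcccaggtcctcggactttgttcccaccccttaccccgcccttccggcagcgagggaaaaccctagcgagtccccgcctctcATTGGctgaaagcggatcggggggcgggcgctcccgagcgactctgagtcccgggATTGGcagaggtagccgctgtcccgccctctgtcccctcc
Of the 29 list genes, 20 had a promoter in the table, and 15 of these (75.0%) held CCAAT on either strand, against 37.9% of 27025 promoters of the same length. Those 27025 were not limited to genes measured in these neurons, and the list includes members that were not lower. No link between these sites and the ratios was tested. The sterol element letters TCACNCCAC were in 1 of the 20, that of Hmgcs1, and in 1.22% of all promoters.

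Hmgcs1, an early enzyme of the pathway, stood in GABAergic neurons at 26.4 and 22.9 CPM in OB and 41.1 and 32.5 in chow, and its log2 ratio was -0.64 (-0.95 to -0.34). In glutamatergic neurons it stood at 31.1 and 20.8 against 40.0 and 33.6, and the ratio was -0.36 (-0.71 to -0.03). The later enzymes Cyp51, at -0.71 (-0.97 to -0.46) and -0.49 (-0.78 to -0.20), Msmo1, at -0.68 and -0.39, and Sqle, at -0.43 and -0.44, went the same way. Each of these enzymes lay below chow in both hashtags of both classes. The same direction was seen outside these neurons, with a marker-free ratio of -0.69 for Cyp51.

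Over the list of cholesterol and fatty acid synthesis, 6 of 28 members were higher and 22 lower in GABAergic neurons, with a median of -0.27. In glutamatergic neurons 7 were higher and 21 lower, with a median of -0.20. Below chow in both hashtags were 15 and 12 members, against 33.2% and 32.5% of all genes tested, and above in both were 3 and 4. With rapamycin nuclei the medians were nearer 0, at -0.05 and -0.02. Acaca, the entry step of fatty acid synthesis, was at 0.02 (-0.08 to 0.12) and 0.02 (-0.10 to 0.14), and Srebf2 itself was at 0.11 and 0.20. Medians of the list in marker-free nuclei and in DIO vehicle neurons were -0.17 and, by class, -0.11 and -0.13.

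**Figure D4:**
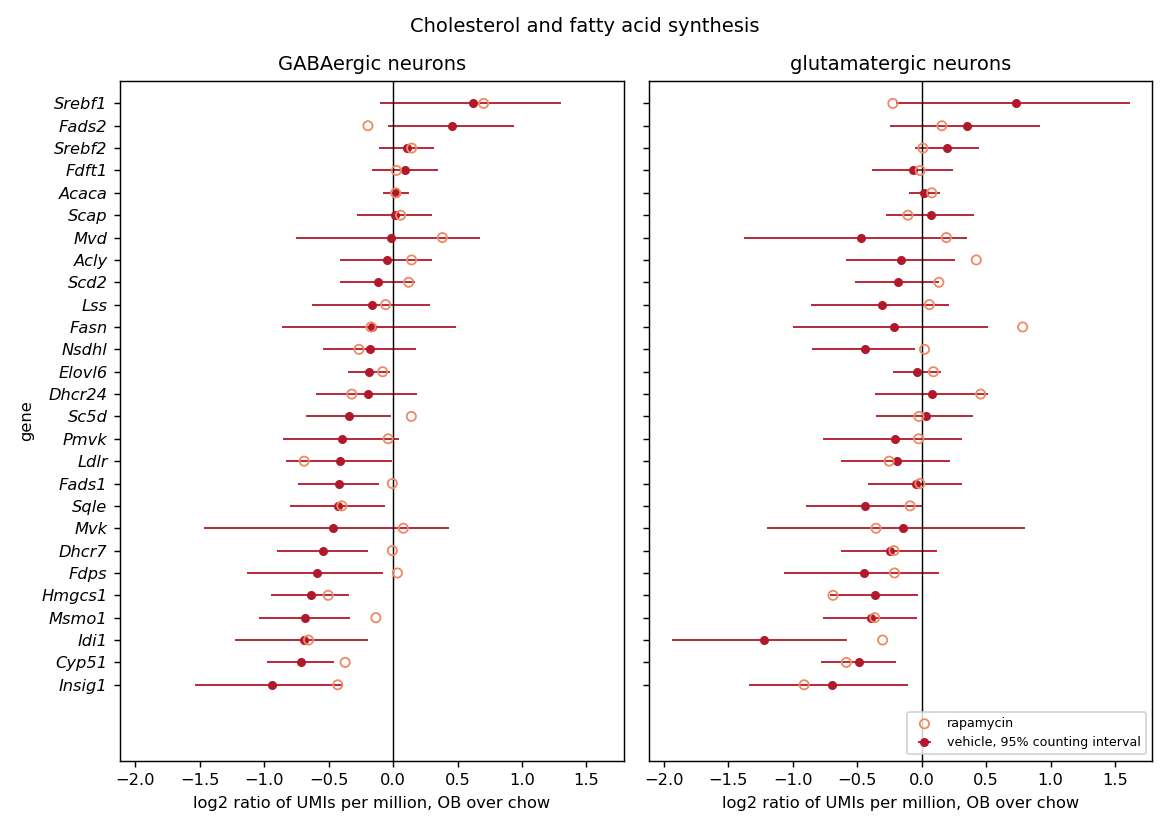
Log2 ratio of OB over chow for measured genes of cholesterol and fatty acid synthesis in vehicle GABAergic (left) and glutamatergic (right) neurons, with 95% intervals for counting error, and in rapamycin neurons (open circles). Insig1, Idi1, Cyp51 and Hmgcs1 lie below 0 in both classes and hashtags.

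Stress and protein-quality genes were lower on balance with vehicle but not with rapamycin. Of 13 heat shock and chaperone genes, 1 was higher in GABAergic neurons (median -0.28) and 2 in glutamatergic neurons (median -0.30), while the rapamycin medians were 0.09 and 0.10. Hspa4, a chaperone of the Hsp110 family, was at -0.38 (-0.55 to -0.22) and -0.47 (-0.68 to -0.27), below chow in both hashtags. Of 21 genes of the unfolded protein response, 4 and 8 were higher (medians -0.16 and -0.12, rapamycin 0.17 and 0.04, and -0.05 and 0.00 after the median ratio of genes of like span was set to 0). Ddit3, which promotes cell death under stress, stood in GABAergic neurons at 4.95 and 6.52 CPM in OB and 20.3 and 19.2 in chow, and its log2 ratio was -2.04 (-2.75 to -1.39). In glutamatergic neurons the ratio was -2.68 (-3.70 to -1.81), and in marker-free nuclei it was -1.60. Hspa5, the main chaperone of the endoplasmic reticulum, was at 0.08 (-0.26 to 0.40) and -0.25 (-0.70 to 0.18).

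Of 31 genes of autophagy and lysosome, 8 were higher and 23 lower in each class, with medians of -0.16 and -0.13, beside medians of -0.04 and -0.05 over all genes tested. With rapamycin nuclei 13 and 15 were higher, and the medians were -0.02 and -0.002. After the median ratio of genes of like span was set to 0, the vehicle medians were -0.15 and -0.05. Sqstm1, the cargo receptor p62, stood in GABAergic neurons at 95.9 and 109 CPM in OB and 151 and 148 in chow, with log2 ratios of -0.65 (-0.81 to -0.50) there and -0.69 (-0.88 to -0.50) in glutamatergic neurons. DIO vehicle neurons held Sqstm1 at 104 and 105 CPM in the respective classes, and marker-free nuclei had a ratio of -0.52. Gabarapl2, which helps autophagosomes mature, was higher at 0.71 in both classes, above chow in both hashtags.

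Genes of the synapse stood slightly higher on balance. Of the glutamate receptor genes, 17 of 22 were higher in GABAergic and 18 of 23 in glutamatergic neurons, with medians of 0.12 and 0.14. Grik1, a kainate receptor subunit, stood in GABAergic neurons at 436 and 384 CPM in OB and 146 and 162 in chow, and had a log2 ratio of 1.58 in both classes (1.48 to 1.67 and 1.45 to 1.71) and 1.13 in marker-free nuclei. Grin2d, an NMDA receptor subunit, was at 0.85 (0.56 to 1.14) and 1.23 (0.88 to 1.57). In DIO vehicle neurons Grik1 stood at 147 and 108 CPM by class, against 146 and 104 in chow.

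Of 49 genes of synaptic adhesion and axon guidance, 38 and 35 were higher (medians 0.11 and 0.10). Robo1, a receptor for Slit guidance cues, led them with 6082 UMIs in OB and 3962 in chow GABAergic neurons and log2 ratios of 2.13 (2.07 to 2.19) and 2.10 (2.03 to 2.17), and it was also higher in marker-free nuclei, between 1.75 and 1.88. These genes are long, and once the median ratio of genes of like span was set to 0 the medians were 0.00 and 0.06 for glutamate receptors and -0.02 and -0.03 for adhesion. Of 31 potassium channel genes, 19 and 23 were higher (median 0.09 in both classes, and -0.01 and 0.01 after the same step for span), led by Kcnk9, a leak channel, at 2.09 (1.56 to 2.64) and 1.60 (1.02 to 2.17). Kcna1, a delayed rectifier, was lower at -0.80 (-1.21 to -0.40) and -0.68 (-1.06 to -0.31).

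Cytosolic ribosomal protein genes were higher in 37 of 56 in GABAergic and 39 of 56 in glutamatergic neurons, both with a median of 0.10, while the rapamycin medians were 0.36 and 0.25. Against the same chow controls the DIO medians were -0.43 and -0.48. These genes are short, with a median span of 3249.5 bases. Over all genes in the shortest and next shortest span bins, DIO medians were -0.62 and -0.41 in GABAergic neurons. In glutamatergic neurons they were -0.60 and -0.42. After the median ratio of genes of like span was set to 0, the OB medians of the list were 0.27 and 0.25. Rpl15, of the large subunit, was the member farthest from chow, at 1.58 (1.24 to 1.92) and 1.82 (1.40 to 2.24). Among the 48 nuclear-encoded subunits of the respiratory chain, 24 and 20 were higher, with medians of -0.03 and -0.14. Ndufb9, a subunit of complex I, was lower at -0.78 (-1.07 to -0.50) and -0.91 (-1.31 to -0.54), and Cox4i1, a subunit of complex IV, was at 0.41 (-0.01 to 0.81) and 0.87 (0.39 to 1.34).

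Insulin and mTORC1 signalling genes stood close to chow. Of 21 insulin and IGF genes, 12 were higher in each class (median 0.04 in both). Insr was at 0.06 (-0.09 to 0.21) and 0.05 (-0.13 to 0.24), and Foxo1, which insulin keeps out of the nucleus, at 0.27 (-0.17 to 0.68) and 0.64 (0.05 to 1.21). Of 30 mTORC1 genes, 12 and 11 were higher (medians -0.08 and -0.12), and Mtor itself was at 0.29 (0.08 to 0.49) and -0.08 (-0.32 to 0.16). Fkbp5, a glucocorticoid-induced gene, was at 0.04 (-0.27 to 0.33) and 0.19 (-0.14 to 0.52) with vehicle and at 0.80 and 0.44 with rapamycin.

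Of the hypothalamic lineage transcription factors, 9 of 29 were higher in GABAergic neurons (median -0.26) and 9 of 26 in glutamatergic neurons (median -0.23). Dlx1 was at -0.60 (-1.02 to -0.21) in GABAergic neurons, below chow in both hashtags. With the clusters of both pools given equal weight the medians were -0.17 and -0.01, and with nuclei thinned to 1000 UMIs they were -0.41 and 0.21, so the glutamatergic difference was not met in either setting.

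The remaining lists had medians within 0.1 of 0 in both classes. GABA and glycine receptor genes were higher in 11 of 19 and 13 of 18 (medians 0.03 and 0.07), and glycolysis genes in 8 and 13 of 23 (medians -0.07 and 0.01). Core clock genes were higher in 9 of 19 in each class (medians -0.02 and -0.09). Genes of thyroid hormone action were higher in 9 of 12 and 4 of 11 (medians 0.06 and -0.03), and genes of the glucocorticoid and stress response in 6 and 5 of 10 (medians 0.02 and 0.05).

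**Figure D5:**
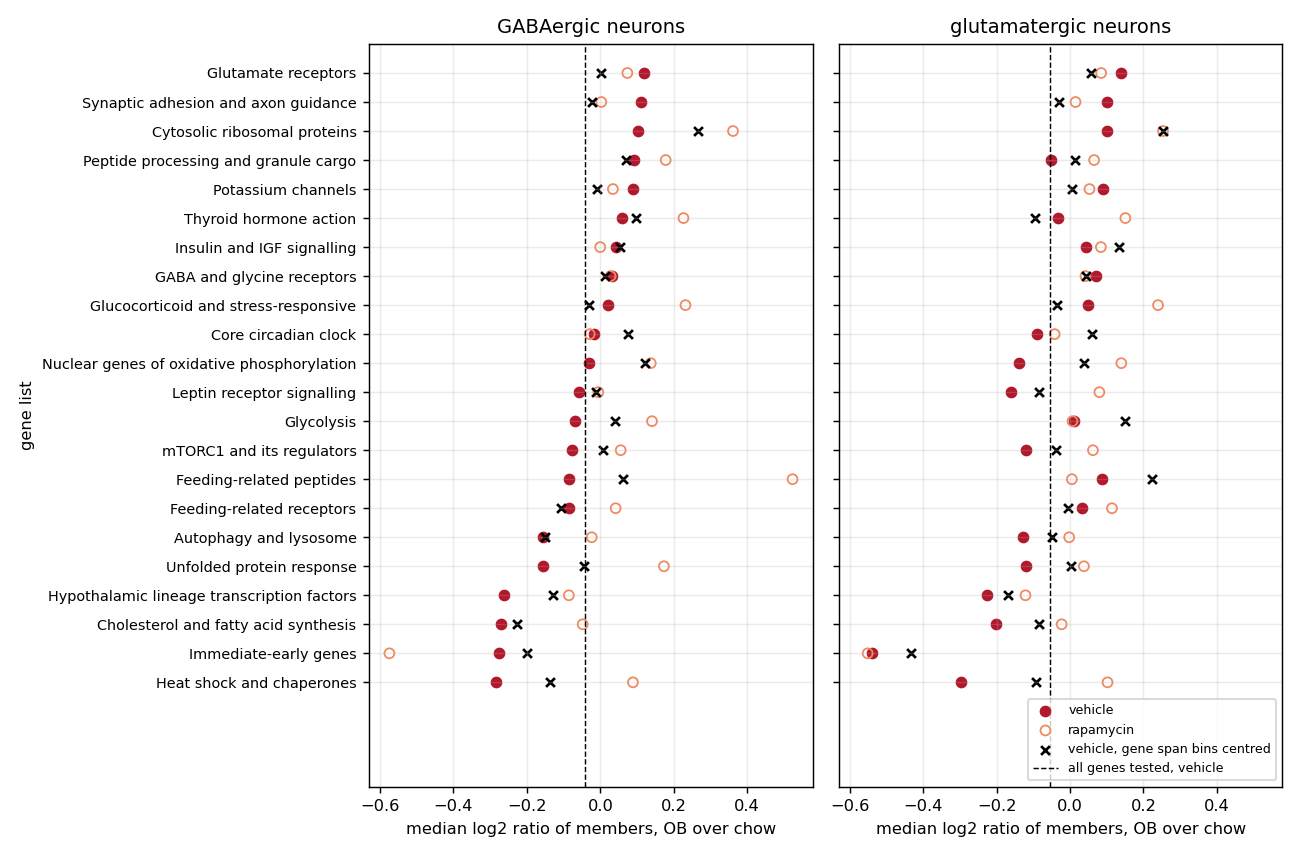
Median log2 ratio of OB over chow of the measured members of 22 gene lists in vehicle neurons (filled), rapamycin neurons (open) and vehicle neurons after the median of each bin of gene span was set to 0 (crosses), for GABAergic (left) and glutamatergic (right) neurons; the dashed line is the median of all genes tested. Immediate-early genes lie left of the line in both hashtags and classes, while the medians of heat shock genes lie on opposite sides of it by hashtag.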

How the data were processed

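The authors deposited UMI counts per gene and nucleus and hashtag counts, 1 matrix per pool. Per the submitters' processing notes reads were processed with Cell Ranger 6.0.0 and mm10, and per the file headers the OB matrix came from 7.0.1; whether introns were counted was not given in the sources used here. Deposited counts over 27514 genes shared by Ensembl ID were summed per pool, hashtag and class, with no filter on nuclei and no doublet caller, and divided by class totals. Log2 ratios have exact (Clopper-Pearson) 95% intervals, and genes needed 50 UMIs over OB and chow combined. With 1 hashtag of 1 pool per group no test was run. Named genes were the 10 per direction and class whose interval bound lay farthest from 0, leaving out gene models and genes with no UMI in a whole pool, 36 genes fixed by name (35 shared), and members of 33 lists. Socs2 was named outside these rules. The nuclei, genes and lists were chosen with earlier results of these data known. Alternatives included hashtag calls by HTODemux (Seurat 5.3.0), TMM scaling (edgeR 4.0.16) and clusters from scanpy 1.11.5; Python was 3.11.15. Ratios and intervals were tested on simulated data with independent UMIs, which cannot show how they behave under spread between nuclei, mice or pools. Promoters were matched by symbol to a RefSeq table. Results for some list members are not reported here, and counts and medians of lists cover all measured members.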

Additional observations from a re-analysis of the deposited data

Results flagged for a closer look

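Pmch and Syt1 had log2 ratios of opposite sign in the 2 classes, with counting intervals on opposite sides of 0; the difference between the classes was not tested for either. Pmch was lower in OB GABAergic neurons, at -0.84 (-1.26 to -0.43), and higher in OB glutamatergic neurons, at 0.56 (0.02 to 1.09), a GABAergic minus glutamatergic difference of -1.40. Without nuclei holding 5 or more Pmch UMIs, a setting chosen after seeing the data, the GABAergic ratio was 1.10 and the glutamatergic 0.46 (-0.29 to 1.17), so a few nuclei, 15 of them in chow, carried the opposite signs. In rapamycin neurons Pmch was higher in OB in both classes, at 0.66 and 1.17. Syt1, the calcium sensor of synaptic vesicles, was at 0.07 (0.04 to 0.10) in GABAergic and -0.10 (-0.15 to -0.06) in glutamatergic neurons, a difference of 0.17. Its GABAergic ratio with rapamycin was -0.03.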

How the results depend on the processing

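With 1 hashtag of 1 pool per group, leaving out a replicate leaves no group. No paired analysis was possible because each group was a single sample and no test was run. The shallower OB pool limits every gene near 50 UMIs.

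Counts of genes at least 2-fold apart moved by over 1.5 times in these settings. Hashtags called by HTODemux gave 320 lower in GABAergic and 399 in glutamatergic neurons, and at least 2 transmitter UMIs gave 136 higher in glutamatergic neurons; the cause was not tested. Thinning to 1000 UMIs gave 69 higher and 74 lower in GABAergic and 34 and 38 in glutamatergic neurons, over fewer genes tested (4685 and 2474). Asking 200 UMIs gave 98, 81, 71 and 67 in the same order, over fewer genes. Asking 1 UMI in each sum gave 2061, 695, 1748 and 775, over more genes. Centring the ratios by gene span gave 125 lower in GABAergic and 149 in glutamatergic neurons. In settings chosen after seeing the data, leaving out genes 2-fold apart in marker-free nuclei left 81 higher and 115 lower in GABAergic and 78 higher in glutamatergic neurons, and rapamycin nuclei gave 148 lower in glutamatergic neurons.

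The GABAergic share of OB neurons was 57.2% with hashtags at least 2 apart. With at least 2 transmitter UMIs it was 66.95% in chow and 71.2% in OB, and with thinning 66.0% in both.

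Directions reversed with thinning for Cartpt (0.69), Mog (-0.57) and Npas4 (0.43) in GABAergic and Col23a1 (-0.16) in glutamatergic neurons. With rapamycin nuclei they reversed in glutamatergic neurons for Sst (0.65), Hcrt (-0.0090), Oxt (0.094) and Npy1r (0.31), and without nuclei holding glial genes for Slc1a3 (-0.62), where the latter setting was also chosen after seeing the data. These are not all the changes of sign. As given above, Pmch, Gal and Penk in GABAergic neurons also changed sign with rapamycin nuclei, and Lepr in GABAergic neurons with thinning. The cause was not tested. Of 51 list medians, 26 shifted by at least 0.1 with thinning, 23 with centring by span, 32 with rapamycin nuclei and 10 with HTODemux, and none with TMM scaling. Genes with no UMI in 1 class sum have no ratio and were not followed across settings.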
